A study of Paeonia suffruticosa with 12 samples.

Results

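AC vs. CK set 3 libraries of peony "FengDan" embryo seedlings raised with activated carbon alone (AC) against 3 libraries of seedlings that received no anti-browning agent (CK). These 6 libraries were taken, by the treatment in the sample labels, from 12 in all, and the other 6 held polyvinyl pyrrolidone alone (PVP) or with activated carbon (AC and PVP). The plant is Paeonia suffruticosa, a tree peony, and all groups carry the same age in the labels, 30 days after rooting in tissue culture. That label was not checked against rooting in each group, so the root content of the CK pools cannot be read from it. Each sample was a mixture of organs, given in the labels as root, stem and leaf together and in the study's methods as leaves and roots pooled from separate seed embryos. The shares of root, stem and leaf in each pool are not given in the sources used here, so fewer cells of a type and less RNA per cell cannot be told apart in these bulk samples. The comparison asked which transcripts of the seedlings differed when activated carbon was the only agent added.

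Cut or wounded peony tissue browns when phenolic compounds are oxidized by polyphenol oxidases, laccases and peroxidases into dark quinones and polymers. Activated carbon is a porous adsorbent that takes phenolics out of a medium, and it also binds hormones, vitamins and other organic compounds there. In roots, the endodermis and the outer layers are sealed by the lignin of the Casparian strip and by suberin, a polyester of long-chain fatty acids and phenolic acids. An embryo carries storage proteins, oil bodies and late embryogenesis abundant proteins, which are normally lost as a seedling becomes established.

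The estimated counts summed to between 19758835 and 20305215 per library in AC and between 19446758 and 22966921 in CK. Levels are CPM, counts set relative to the library total, after TMM scaling, which corrects for differences in composition between libraries. They are compared between libraries but not between unigenes, since unigene lengths were not used. One CK library stood apart. Summed over 21 seed storage and oil body unigenes, CK replicate 2 reached 48900 unscaled CPM, against 4030 and 3860 CPM in the other CK libraries. AC replicates 1 to 3 were at 14700, 29500 and 3480 CPM. A single unigene, VICHY TRINITY_DN913_c0_g1, held 3650 and 3470 CPM of the sums in CK replicates 1 and 3, and 923 CPM in AC replicate 3. The storage albumin 2SS was at 1440 CPM in AC replicate 3 and at 40.3 and 20.8 CPM in CK replicates 1 and 3. Similar sums in these 3 libraries thus do not mean similar seed reserves. CK replicate 2 correlated with AC replicate 2 (Pearson r = 0.959 on the log2 scale, across unigenes) more closely than with CK replicates 1 and 3 (r = 0.941 and 0.944). Markers were summed for leaf and for the root endodermis, and none was set for stem. The 9 leaf marker unigenes summed to 43.5 to 203 unscaled CPM in the 6 libraries with the groups overlapping. The 8 markers of the root endodermis and its barriers summed to 28.2 to 44.8 CPM in AC and 57.4 to 105 CPM in CK without overlap. That gap lay largely in PER64 TRINITY_DN9029_c0_g1, at 11.1, 12.3 and 6.93 CPM in AC and 52.5, 19.1 and 66.1 CPM in CK. CSPLA and the other PER64 unigene were higher in every AC library than in any CK library. No marker was at 0 in all 12 libraries, but markers were named from unigenes the study had called, so this is no check of the labels.

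A unigene, a gene assembled from the reads themselves, counted as differentially expressed (DEG) where its log2 fold change (log2FC, AC minus CK, given ± SE) was above 1 or below -1 with adjusted p below 0.05 by edgeR. Of 58247 unigenes tested, 189 (0.324%) were DEGs in AC vs. CK, 106 of them higher with activated carbon (0.182%) and 83 lower (0.142%). A Swiss-Prot name was at hand for 107 of the 189, 66 higher and 41 lower. Among named unigenes, 4 named NLTPC (lipid transfer proteins), 3 metallothioneins and the glutathione transferase GSTXC had log2FC values from 9.31 to 10.28, all higher in AC, while the lower unigenes included genes of suberin synthesis, lipid transfer proteins anchored in the membrane and regulators of root growth. The 3 AC and the 3 CK libraries did not overlap for 184 of the 189 DEGs, against 11% of all unigenes tested, and every AC library stood above every CK library for 3.7% of all unigenes tested. DEGs were called from these same libraries, so their separation follows largely from the call and adds no support to it.

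**Figure D1:**
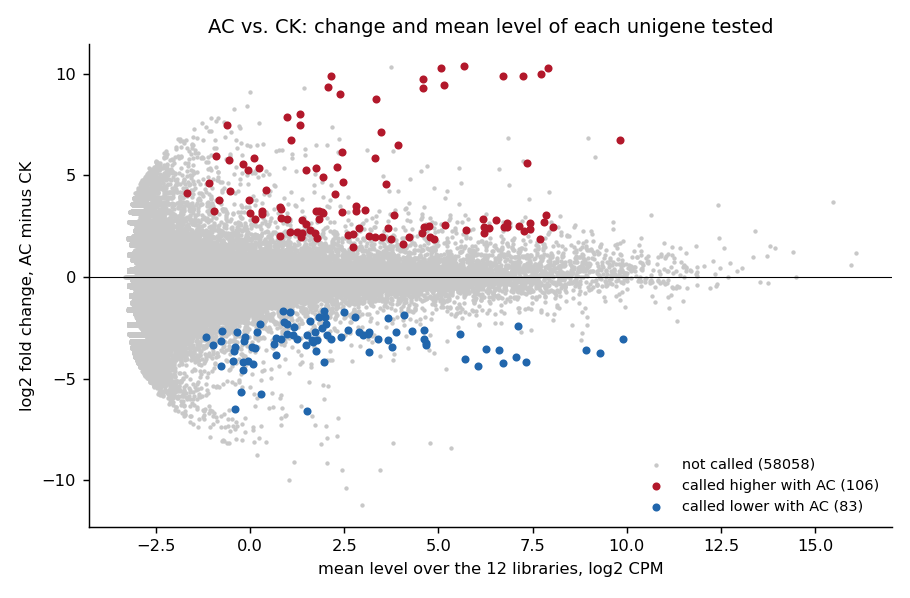
Log2 fold change (AC minus CK) against the mean level over 12 libraries (log2 CPM) for every unigene tested, with 106 DEGs higher in AC in red, 83 lower in blue and the rest in grey. DEGs of both directions are spread over low and high levels, and the 7 unigenes of the NLTPC and metallothionein sets lie between 9.31 and 10.28.

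How many unigenes passed depended on single libraries. Without CK replicate 2, 421 unigenes passed (0.723%), 256 higher (0.44%) and 165 lower (0.283%), and these included 164 of the 189, none of them in the opposite direction. Without CK replicate 3 none passed by edgeR, although 4469 had an unadjusted p under 0.05 and the smallest adjusted p was 0.054. Without CK replicate 1, AC replicate 3, AC replicate 2 and AC replicate 1, the numbers were 10, 11, 63 and 158. DESeq2 on the 2 groups called 531 unigenes (0.912%), among them 185 of the 189. Scaled by library size alone, 71 unigenes were higher and 165 lower (30.1% higher, against 56.1% by TMM). The median log2 fold change of all unigenes tested then moved from -0.23 to -0.57. With the filterByExpr filter on low counts, which kept 20884 unigenes, the median by TMM was -0.01. List medians below are to be read against -0.23 or -0.01, depending on the unigenes kept. The samples were pools of embryos, so the p-values rest on differences among pools, with the spread estimated over all 12 libraries.

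Of 18 unigenes for suberin, cutin and wax enzymes, 4 fell with activated carbon, 1 rose and 13 did not pass, with a median log2FC of -1.70. DESeq2 called 4 lower and 4 higher, and the groups did not overlap in 11 lower and 5 higher members. Unigenes in this and the following lists have names only because the study had called them in at least 1 of its comparisons of these libraries. A list's counts therefore give no independent support to its direction. The base for them is the 107 DEGs among 769 named unigenes tested, not the 0.324% of all unigenes. The shares without overlap among all unigenes tested (11%, and 3.7% with AC above CK) are no matching base either. C86A1 (CYP86A1), which in Arabidopsis adds the terminal hydroxyl group to fatty acids for root suberin, stood at 0.489, 0.26 and 0.301 CPM in AC and at 2.53, 2.38 and 5.24 CPM in CK (log2FC -3.22 ± 0.48, adjusted p = 0.02 by edgeR). All 3 AC libraries lay below all 3 CK libraries. C86B1 (CYP86B1), which hydroxylates very-long-chain fatty acids of the same polymer, was at 0.407, 0.573 and 0.361 CPM in AC and 3.84, 1.48 and 6.49 CPM in CK (log2FC -3.12 ± 0.54, adjusted p = 0.026). HHT1, the acyltransferase that attaches ferulic acid to suberin monomers, was at 42.2, 38.9 and 22.9 CPM in AC against 153, 104 and 293 CPM in CK (log2FC -2.40 ± 0.42, adjusted p = 0.028). For both, CK replicate 2 was the lowest of the CK libraries and still above every AC library. FACR3, a fatty acyl-CoA reductase that makes wax alcohols, fell by 1.98 on the log2 scale (SE 0.34, adjusted p = 0.025), from 6.73, 6.33 and 13.3 CPM in CK to 1.96, 2.5 and 2.23 CPM in AC.

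DCR, an acyltransferase needed for cutin of the shoot surface, moved the other way, with 14.6, 17.4 and 14.5 CPM in AC and 4.85, 1.84 and 5.13 CPM in CK (log2FC 1.97 ± 0.39, adjusted p = 0.047). Its call did not hold without CK replicate 2 (log2FC 1.69, adjusted p = 0.064), the CK library in which DCR was lowest. Without it the list counted 6 lower and 0 higher, with FACR2 (adjusted p = 0.016) and GPAT5 (adjusted p = 0.038), an acyltransferase that makes suberin precursors in Arabidopsis roots, joining the 4. Of the other members, KCS1, GPAT6, LACS2 and the transporter AB6G had log2FC values of -1.93, -1.79, -1.15 and -1.72 and did not pass the test (adjusted p from 0.16 to 0.28). HTH, C77A2 and C96AF, enzymes placed with the cuticle, had positive values of 2.15, 1.61 and 1.16 and did not pass either. In unscaled CPM the 18 members summed to 74.9 to 125 in AC and 166 to 551 in CK. The 8 endodermis markers given above are themselves members of this list and of those for the Casparian strip and peroxidases, so their lower sum in AC is no separate measure, and the part of root content in the result was not tested.

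Lipid transfer proteins tethered to the cell surface by a glycosylphosphatidylinositol (GPI) anchor, which carry lipids towards the wall, went both ways. Of 11 unigenes, 4 fell and 1 rose (median -2.67), and DESeq2 called 5 lower and 3 higher. LTG20 was at 0.407, 0.364 and 0.0602 CPM in AC and 6.46, 1.88 and 7.58 CPM in CK (log2FC -4.17 ± 0.63, adjusted p = 0.02), and LTG16 at 1.06, 1.46 and 1.75 CPM against 7.08, 8.12 and 12.5 CPM (log2FC -2.70 ± 0.49, adjusted p = 0.032). Both were lower in every AC library than in any CK library. Both LTPG5 unigenes that passed fell as well, TRINITY_DN3269_c0_g1 by 4.31 (SE 0.90, adjusted p = 0.045) and TRINITY_DN26209_c0_g1 by 2.67 (SE 0.51, adjusted p = 0.039) on the log2 scale. TRINITY_DN3269_c0_g1 had only 3, 1 and 0 counts in AC, so the size of its change is uncertain. The one that rose was LTG14 TRINITY_DN6058_c0_g1, at 7.82, 4.95 and 11.2 CPM in AC and 0.804, 0.897 and 0.894 CPM in CK (log2FC 3.20 ± 0.49, adjusted p = 0.022). A second LTG14 unigene, TRINITY_DN89941_c0_g1, was at 0 in all CK libraries and at 0.244, 1.56 and 21.7 CPM in AC, and it passed by DESeq2 only (adjusted p = 0.14 by edgeR and 0.011 by DESeq2). LTG15 was at 4.48, 5.83 and 6.92 CPM against 26.7, 14 and 45.4 CPM without overlap and passed the test only without CK replicate 2 (adjusted p = 0.064 with it and 0.018 without).

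GDSL esterases, a large family of lipid esterases some of which act on cutin and suberin, went both ways. Of 11 unigenes, 3 rose and 3 fell (median -0.10). GDL38 was at 1.06, 0.989 and 0.843 CPM in AC and 7.23, 3.59 and 13.2 CPM in CK (log2FC -3.04 ± 0.53, adjusted p = 0.027), with GDL31 and GDL80 close to it in size of change (-2.80, adjusted p = 0.025, and -3.06, adjusted p = 0.049). GDL34 stood at 9.86, 23.7 and 14.5 CPM in AC and 3.75, 5.7 and 3.73 CPM in CK (log2FC 1.87 ± 0.36, adjusted p = 0.044). GDL83 and GDL29 also rose, by 2.15 and 3.43 on the log2 scale (adjusted p = 0.047 and 0.049), and GDL83 missed the threshold without CK replicate 2 (adjusted p = 0.051).

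Among 6 Casparian strip genes, 1 rose and 1 fell. CSPL5, a member of the CASP-like membrane protein family, was at 1.26, 0.521 and 0.602 CPM in AC and 5.48, 2.92 and 9.36 CPM in CK (log2FC -2.86 ± 0.53, adjusted p = 0.036). DIR7, a dirigent protein of the family that guides the coupling of lignin and lignan precursors, was at 1.3, 1.72 and 1.26 CPM against 0.208, 0.179 and 0.0777 CPM (log2FC 3.13 ± 0.60, adjusted p = 0.037), and its adjusted p without CK replicate 2 was 0.05. MYB36, the transcription factor that switches on Casparian strip formation in Arabidopsis, was at 2.93, 2.4 and 2.89 CPM in AC and 7.02, 11.8 and 8.28 CPM in CK without overlap and did not pass (log2FC -1.72, adjusted p = 0.055 by edgeR and 0.0033 by DESeq2). CSPLA, another family member, stood at 4.52, 10.4 and 6.5 CPM in AC and 0.0893, 1.75 and 0.117 CPM in CK, and it passed as higher only without CK replicate 2 (adjusted p = 0.1 with it and 0.0032 without).

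**Figure D2:**
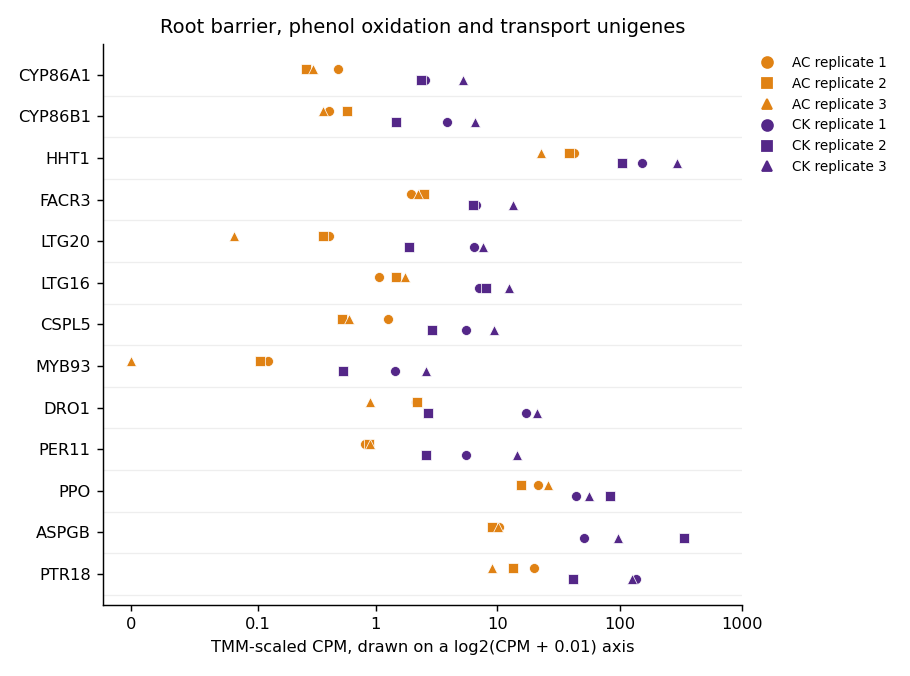
Level of 13 unigenes in each of the 3 AC (orange) and 3 CK (purple) libraries, as TMM-scaled CPM on a log2(CPM + 0.01) axis, with the marker shape giving the replicate. AC and CK do not overlap in any of the 13, PPO did not pass the test, and for DRO1 the CK replicate 2 level of 2.69 CPM lay next to the highest AC level of 2.19 CPM.

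Regulators of root development fell in 3 of 8 cases and rose in none (median -1.91). MYB93, a negative regulator of lateral root development in Arabidopsis, was at 0.122, 0.104 and 0 CPM in AC and 1.43, 0.538 and 2.6 CPM in CK (log2FC -4.13 ± 0.78, adjusted p = 0.028). It had only 3, 2 and 0 counts in AC, so the size of its change is uncertain. DRO1, which sets the angle of root growth in rice, was at 2.16, 2.19 and 0.903 CPM in AC, and in CK at 17.1, 2.69 and 21.2 CPM (log2FC -2.95 ± 0.59, adjusted p = 0.047). CK replicate 2 held the lowest CK level of both, and without it their adjusted p was 0.0071 and 0.0032. RITF1, a transcription factor of the root meristem in Arabidopsis, was at 0.978, 0.729 and 1.02 CPM against 3.48, 5.83 and 5.87 CPM (log2FC -2.47 ± 0.43, adjusted p = 0.027). PLET2 (PLETHORA 2), which maintains the root stem cell niche, stood at 0.489, 0.781 and 0.361 CPM in AC and 7.2, 1.79 and 4.23 CPM in CK without overlap and passed as lower only without CK replicate 2 (adjusted p = 0.093 with it and 0.029 without). AIL1, of the same AP2 family as PLETHORA genes, was at 10, 15.4 and 9.09 CPM in AC and 0.446, 4.44 and 0.194 CPM in CK, and without CK replicate 2 it passed as higher (log2FC 5.16, adjusted p = 0.0032). MIZ1, needed in Arabidopsis for root growth towards water, was higher in every AC library than in any CK library and did not pass (log2FC 1.88, adjusted p = 0.059).

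Unigenes for enzymes that oxidize phenolics had mostly negative log2FC values, and few passed the test. None of 6 unigenes for laccases and polyphenol oxidase passed, all 6 had negative values, and their median was -1.76. PPO, the polyphenol oxidase that turns o-diphenols into quinones, was at 21.4, 15.5 and 26.1 CPM in AC and 44.2, 83.4 and 56.2 CPM in CK. Every AC library lay below every CK library, with a log2 fold change of -1.54 (SE 0.45), yet the adjusted p was 0.22 by edgeR, 0.38 without CK replicate 2, where the PPO level was the highest, and 0.012 by DESeq2. LAC3 stood at 3.83, 0.417 and 2.17 CPM in AC and 24.7, 2.38 and 50.8 CPM in CK, where CK replicate 2 fell within the range of AC, and without that library it passed (log2FC -4.08, adjusted p = 0.0068). LAC1 and LAC5 did not overlap between the groups, at log2FC values of -2.55 and -1.97 (adjusted p = 0.14 and 0.16). The 6 unigenes summed to 43.4 to 57.3 unscaled CPM in AC and 125 to 229 in CK.

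Class III peroxidases, secreted heme enzymes that polymerize phenolics in the wall, fell in 2 of 11 cases and rose in 1 (median -1.74). PER11 was at 0.815, 0.885 and 0.903 CPM in AC and 5.54, 2.6 and 14.5 CPM in CK (log2FC -3.12 ± 0.62, adjusted p = 0.047), and PER20 at 0.774, 0.417 and 0.722 CPM against 3.48, 1.97 and 7.38 CPM (log2FC -2.73 ± 0.55, adjusted p = 0.047). The 2 unigenes named PER64, whose Arabidopsis counterpart lignifies the Casparian strip, differed. TRINITY_DN105044_c0_g1 was at 8.96, 4.11 and 3.55 CPM in AC and 0.804, 0.763 and 0.855 CPM in CK (log2FC 2.78 ± 0.56, adjusted p = 0.048, and 0.072 without CK replicate 2), while TRINITY_DN9029_c0_g1 was at 9.21, 12.7 and 8.25 CPM in AC and 35.9, 18.3 and 49.9 CPM in CK and did not pass (adjusted p = 0.14). Without CK replicate 2, 5 peroxidases were lower and none higher, PER49, PER55 and PER12 being the other 3. PER12 went from 169, 80.3 and 253 CPM in CK to 70.2, 33.5 and 46.7 CPM in AC.

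Upstream of these oxidases, none of 13 phenylpropanoid and monolignol unigenes passed, although 7 were lower and 2 higher in every AC library than in any CK library (median -0.61). Without CK replicate 2 the only call was a higher one, CCR1 TRINITY_DN21646_c0_g1, at 0.57, 1.72 and 0.482 CPM in AC and 0, 0.404 and 0 CPM in CK (adjusted p = 0.35 with that library and 0.039 without). The PALY unigene TRINITY_DN2415_c0_g1, for phenylalanine ammonia-lyase at the head of the pathway, was at 46.5, 34.8 and 44 CPM in AC and 99.6, 53.4 and 108 CPM in CK (log2FC -1.06, SE 0.31, adjusted p = 0.23). The CCR1 unigene TRINITY_DN9614_c0_g1, for cinnamoyl-CoA reductase, the first step committed to lignin, was at 35, 32.1 and 49.7 CPM against 95.2, 60.4 and 92.9 CPM (log2FC -1.09, SE 0.30, adjusted p = 0.19). CSE, caffeoyl shikimate esterase, had the smallest p of the list, with 3.75, 3.07 and 3.61 CPM in AC and 6.34, 21.9 and 10.1 CPM in CK (log2FC -1.87, adjusted p = 0.063 by edgeR and 0.031 by DESeq2). The list summed to 217 to 342 unscaled CPM in AC and 471 to 735 in CK. UDP-glycosyltransferases, which attach sugars to phenolics and other small molecules, had a median of -1.17 and no member of 11 passed. UGT1 and UFOG did not overlap between the groups, at -1.46 and -1.93 on the log2 scale (adjusted p = 0.13 and 0.13), and U89B2 passed as lower without CK replicate 2 (adjusted p = 0.012). Of 12 cytochromes P450 of the CYP71 clan, C7A15 (TRINITY_DN31378_c0_g1) fell, from 3.69, 1.53 and 6.1 CPM in CK to 0.367, 0.364 and 0.361 CPM in AC (log2FC -3.35 ± 0.56, adjusted p = 0.025), and no other passed.

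Soluble, non-specific lipid transfer proteins are small secreted proteins that bind lipids and occur in the epidermis of young organs. Of 33 unigenes, 6 rose with activated carbon, none fell and 27 did not pass, the median was 2.51, and 29 of 33 had positive values. The strongest were 4 unigenes named NLTPC. TRINITY_DN35416_c0_g1 was at 4.44, 58.7 and 95.8 CPM in AC and 0.0298, 0.0449 and 0.0389 CPM in CK (log2FC 10.27 ± 1.37, adjusted p = 0.0045, which 1 unnamed unigene shared as the smallest of all tested). A fitted value against so few counts depends on the prior count, and its counts of 2827 in AC and 3 in CK gave a ratio of 1270 with a 95% counting interval of 436 to 6180. TRINITY_DN1059_c0_g1 was at 29.2, 311 and 562 CPM against 0.179, 0.314 and 0.389 CPM (log2FC 10 ± 1.62, adjusted p = 0.023), TRINITY_DN27316_c1_g1 at 15.6, 158 and 240 CPM against 0.268, 0.0897 and 0.0389 CPM (log2FC 9.87 ± 1.64, adjusted p = 0.023). The fourth, TRINITY_DN9532_c0_g1, had 1995 counts in AC and 3 in CK (ratio 899, 307 to 4360). All 4 were lowest in AC replicate 1 and held nearly fixed shares of their joint counts in the 3 AC libraries, TRINITY_DN1059_c0_g1 for example 55.3%, 54.5% and 58.3%. Unigenes of 1 name can be split or joined copies of 1 gene in the assembly, so the 4 are not independent.

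The other 2 that rose were NLTP1 (TRINITY_DN24565_c0_g1), with 103 counts in AC and 2 in CK (ratio 69.6, 18.8 to 583), and NLTP (TRINITY_DN35693_c0_g1), at 1.96, 5.1 and 3.49 CPM in AC and 0.149, 0.583 and 0.389 CPM in CK (log2FC 3.26 ± 0.65, adjusted p = 0.048). In many of the others CK replicate 2 lay nearer to AC. The NLTP1 unigene TRINITY_DN1254_c0_g1 was at 455, 2010 and 1040 CPM in AC and 37.4, 318 and 171 CPM in CK, with an adjusted p of 0.14 with CK replicate 2 and 0.046 without. Without that library 21 of 33 passed as higher (median 3.70), and DESeq2 with it also called 21. In 22 of 33 every AC library was above every CK library, against 3.7% of all unigenes tested, which is no matching base for named unigenes. The list summed to 14500 to 27400 unscaled CPM in AC and 3380 to 10300 in CK.

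Leaf polarity regulators rose in 3 of 5 cases, and in all 5 every AC library was above every CK library (median 2.05). YAB1 (TRINITY_DN76361_c0_g1), a YABBY factor that marks the lower side of the leaf in Arabidopsis, was at 1.18, 1.67 and 1.02 CPM in AC and 0.0298, 0.224 and 0.0389 CPM in CK (log2FC 3.77 ± 0.70, adjusted p = 0.028). AS1, a MYB factor that represses meristem genes in young leaves, was at 4.73, 8.38 and 7.22 CPM in AC and 1.67, 1.84 and 1.4 CPM in CK (log2FC 2.05 ± 0.40, adjusted p = 0.045, and 0.05 without CK replicate 2). LSH4, expressed at organ boundaries in Arabidopsis, went from 3.1, 4.67 and 2.64 CPM in CK to 13.4, 6.35 and 21 CPM in AC (log2FC 1.97 ± 0.38, adjusted p = 0.043). The other YAB1 unigene and YAB5 had log2FC values of 3.44 and 1.51 and did not pass (adjusted p = 0.063 and 0.26). Summed over the list, the level was 43.4 to 51.1 unscaled CPM in AC and 11.1 to 19.4 in CK. The summed leaf markers, in contrast, overlapped between the groups, at 113, 108 and 191 CPM in AC and 116, 43.5 and 203 CPM in CK.

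Of 19 light harvesting and carbon fixation unigenes, 2 rose and none fell (median 0.91), while DESeq2 called 8 higher and 3 lower. The list summed to 2670 to 4210 unscaled CPM in AC and 1920 to 3660 in CK, so the groups overlapped. PSBM (TRINITY_DN3846_c0_g2), a small photosystem II subunit encoded in the plastid genome, was at 63.7, 111 and 262 CPM in AC and 16.8, 33 and 27.4 CPM in CK (log2FC 2.50 ± 0.46, adjusted p = 0.032). CB21 (TRINITY_DN12560_c2_g1), a chlorophyll a/b binding protein of the light harvesting complex, was at 2.77, 4.43 and 14.9 CPM against 0.357, 1.17 and 0.738 CPM (log2FC 3.30 ± 0.66, adjusted p = 0.047). Another CB21 unigene, TRINITY_DN52998_c0_g1, was at 36, 48.1 and 31.1 CPM in AC and 41.6, 13 and 77.7 CPM in CK (log2FC -0.20, adjusted p = 0.92). RBL, the large subunit of Rubisco and also encoded in the plastid, did not overlap between the groups and narrowly missed the threshold (100, 189 and 134 CPM against 29.2, 50.9 and 57.4 CPM, log2FC 1.62, adjusted p = 0.055). MATK, a maturase of the plastid genome, is not a member of this list. It rose in both its unigenes (1.89 and 1.98 on the log2 scale, adjusted p = 0.032 and 0.043). PSBR (TRINITY_DN32123_c2_g1) was at 0 in all AC libraries and at 1.43, 0.897 and 2.84 CPM in CK, and it passed as lower only without CK replicate 2 (adjusted p = 0.058 with it and 0.031 without).

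**Figure D3:**
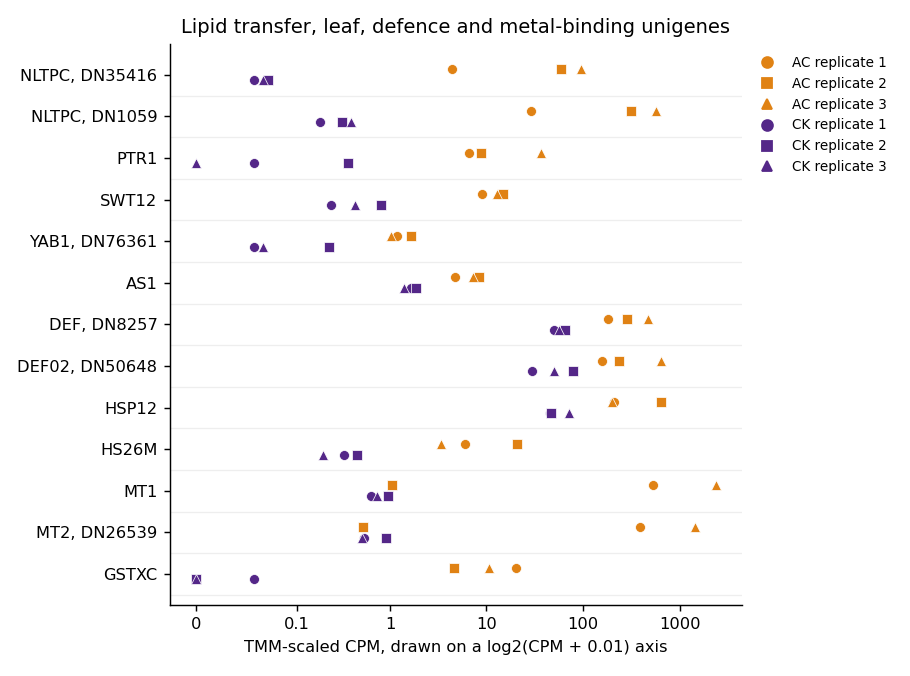
Level of 13 unigenes in each of the 3 AC (orange) and 3 CK (purple) libraries, as TMM-scaled CPM on a log2(CPM + 0.01) axis, with the marker shape giving the replicate. The groups do not overlap except for MT2, and MT1 and MT2 show AC replicate 2 (1.04 and 0.521 CPM) beside the CK libraries while AC replicates 1 and 3 lie between 387 and 2340 CPM.

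Of 16 unigenes for defensins and snakins, small cysteine-rich antimicrobial peptides, 5 rose, none fell and 11 did not pass (median 2.30). All 5 were defensins. DEF TRINITY_DN8257_c3_g1 was at 181, 281 and 469 CPM in AC and 50, 64.1 and 56.5 CPM in CK (log2FC 2.45 ± 0.39, adjusted p = 0.023). DEF02 TRINITY_DN50648_c0_g1 was at 156, 232 and 641 CPM in AC and 29.3, 79.3 and 49.7 CPM in CK (log2FC 2.70 ± 0.52, adjusted p = 0.04). The other 3, TRINITY_DN26079_c0_g1, TRINITY_DN6173_c1_g1 and TRINITY_DN8815_c1_g1, rose by 2.42, 2.35 and 2.48 on the log2 scale (adjusted p = 0.023, 0.032 and 0.027). In each of the 5, AC replicate 3 was the highest library, and the 5 calls held without CK replicate 2. A further pair of DEF unigenes, TRINITY_DN1108_c0_g1 and TRINITY_DN14864_c0_g1, followed the seed reserves instead and peaked in CK replicate 2 at 3200 and 1250 CPM. None of 14 PR-10 proteins, cytosolic proteins induced by pathogens and stress, passed the test (median 0.65).

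Metallothioneins, cysteine-rich proteins that bind copper and zinc, gave 3 of the largest changes, and these rested on 2 of the 3 AC libraries. Of 13 unigenes, 3 rose and none fell (median 1.62). MT1 was at 531, 1.04 and 2340 CPM in AC replicates 1 to 3 and at 0.625, 0.942 and 0.738 CPM in CK (log2FC 10.28 ± 1.64, adjusted p = 0.02). MT2 TRINITY_DN26539_c0_g1 was at 387, 0.521 and 1420 CPM against 0.536, 0.897 and 0.505 CPM (log2FC 9.87 ± 1.66, adjusted p = 0.025), and MT2B at 60.3, 0.26 and 225 CPM against 0.179, 0.0449 and 0.194 CPM (log2FC 9.31 ± 1.54, adjusted p = 0.023). In AC replicate 2 all 3 were near the level of CK, which lay at or below 0.942 CPM. Their shares of the joint counts were near alike in AC replicates 1 and 3, at 54.3% and 58.7% for MT1, 39.5% and 35.6% for MT2 and 6.17% and 5.64% for MT2B. Their means were 0.501 to 0.871 CPM in PVP and 0.15 to 0.51 CPM in AC and PVP. In the other direction, MT2 TRINITY_DN29305_c0_g2 was at 0.163, 0.364 and 0.542 CPM in AC and 166, 198 and 0.194 CPM in CK, where only CK replicate 3 lay within the range of AC (log2FC -8.44, adjusted p = 0.1 by edgeR and 0.00036 by DESeq2, which called it lower). A further MT2 unigene, TRINITY_DN52038_c0_g1, was at 15100, 22000 and 19900 CPM in AC and 8280, 13800 and 5860 CPM in CK and did not pass (log2FC 1.03, adjusted p = 0.65).

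Among 14 iron and copper handling unigenes, HIP7, a heavy metal-associated isoprenylated protein, rose and none fell (median 1.36). It was at 15.8, 20 and 22.3 CPM in AC and 3.36, 4.8 and 2.72 CPM in CK (log2FC 2.42 ± 0.38, adjusted p = 0.023). Its relative HIP4 was at 0.978, 0.26 and 0.361 CPM against 3.04, 1.79 and 5.98 CPM and passed as lower only without CK replicate 2 (adjusted p = 0.055 with it and 0.018 without). The ferritin unigenes FER3 and FRI3, for iron storage in plastids, had log2FC values of 2.27 and 1.45, with every AC library above every CK library, and did not pass (adjusted p = 0.14 and 0.18). Of 7 glutathione transferases, which couple glutathione to reactive compounds, GSTXC rose, from 1 count over the 3 CK libraries to 763 over the 3 AC libraries (ratio 1030, 95% counting interval 185 to 40800; adjusted p = 0.028). It stood at 20.4, 4.58 and 10.5 CPM in AC.

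Small heat shock proteins, chaperones that are made under stress and late in seed development, rose in 4 of 8 cases, and all 8 had positive values (median 3.24). HS26M, a mitochondrial member, was at 6.03, 20.5 and 3.37 CPM in AC and 0.327, 0.449 and 0.194 CPM in CK (log2FC 4.93 ± 0.65, adjusted p = 0.015). HSP12 was at 210, 630 and 197 CPM against 45.9, 46 and 71.6 CPM (log2FC 2.67 ± 0.45, adjusted p = 0.025). HS22C and HSP11 rose by 5.40 and 3.81 on the log2 scale (adjusted p = 0.025 and 0.023). In these 4, CK replicate 2 was not raised to the level of AC. HSP22 and HS16A behaved differently, at 3.24, 413 and 0.544 CPM and 1.4, 241 and 0.738 CPM in CK, and their levels in CK replicate 2 lay within the range of AC.

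Seed reserve transcripts varied more within the groups. None of 21 seed storage and oil body unigenes and none of 9 for late embryogenesis and seed maturation passed (medians 0.25 and 0.00). The storage albumin 2SS was at 5670, 13700 and 1710 CPM in AC and 27.5, 27200 and 15.7 CPM in CK, the oleosin OLEL at 1270, 4960 and 378 CPM against 25.4, 3320 and 12.5 CPM, and the embryo protein EML at 2900, 11500 and 285 CPM against 26.7, 8630 and 8.78 CPM. CK replicate 2 lay within or above the range of AC for each, whereas CK replicates 1 and 3 were below every AC library. Without CK replicate 2 the medians were 6.19 and 6.06, with 10 of 21 and 1 of 9 passing as higher, OLEL among them (log2FC 6.95, adjusted p = 0.018). Not every member followed this pattern. VICHY TRINITY_DN913_c0_g1, a vicilin, had high levels in all 6 libraries, at 2310, 1020 and 1100 CPM in AC and 2500, 1390 and 2620 CPM in CK. A second VICHY unigene, TRINITY_DN1097_c0_g1, was at 2.53, 2.97 and 3.31 CPM in AC and 0.357, 0.583 and 1.09 CPM in CK. There the groups did not overlap, CK replicate 2 was not raised, and it did not pass (adjusted p = 0.21 by edgeR). Neither glyoxylate cycle enzyme (MASY and ACEA, which turn stored oil into sugar precursors) passed (log2FC 2.34 and 1.53).

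**Figure D4:**
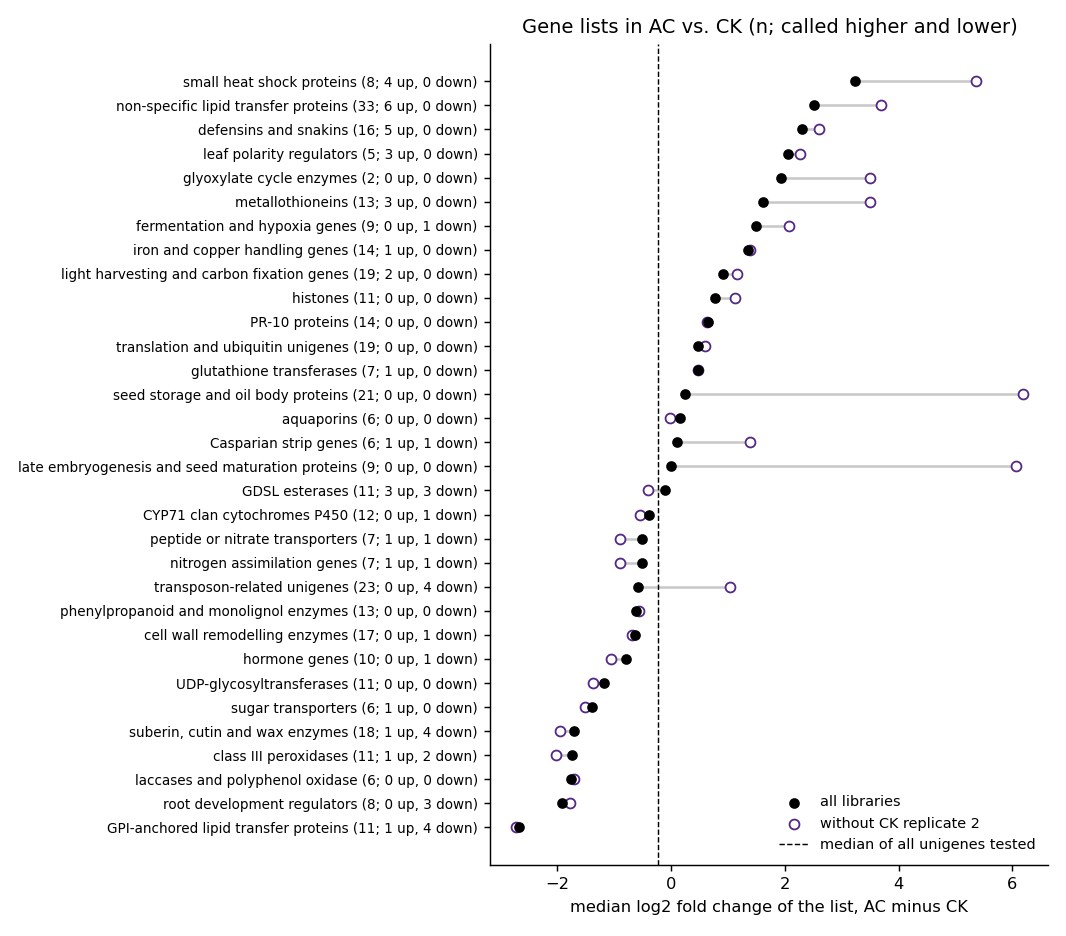
Median log2FC (AC minus CK) of 32 gene lists in all libraries (black) and without CK replicate 2 (open), with the number of unigenes and of DEGs in each direction beside the name and the median of all unigenes tested (-0.23) as a dashed line. Small heat shock proteins, non-specific lipid transfer proteins, defensins and leaf polarity regulators lie highest, GPI-anchored lipid transfer proteins lowest, and the seed lists move furthest, to 6.19 and 6.06, without that library.

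Genes of nitrogen and sugar transport gave single large changes in both directions. ASPGB, an asparaginase, which frees ammonium from asparagine, was at 10.3, 9.01 and 10.1 CPM in AC and 51.3, 334 and 97.4 CPM in CK (log2FC -4.04 ± 0.64, adjusted p = 0.023), highest in CK replicate 2 and still lower in AC without that library (log2FC -2.87, adjusted p = 0.012). GDU4, a membrane protein of the family that promotes amino acid export, was at 2.57, 1.87 and 3.97 CPM against 0.327, 0.359 and 0.427 CPM (log2FC 2.90 ± 0.41, adjusted p = 0.018). These were the 2 calls among 7 nitrogen assimilation genes. Of 7 peptide or nitrate transporters, PTR1 rose and PTR18 fell. PTR1 was at 6.52, 8.7 and 36.7 CPM in AC and 0.0298, 0.359 and 0 CPM in CK (log2FC 7.14 ± 1.16, adjusted p = 0.02), and PTR18 at 20, 13.4 and 9.09 CPM against 136, 41.7 and 126 CPM (log2FC -2.83 ± 0.51, adjusted p = 0.029). Of 6 sugar transporters, SWT12 rose, a sucrose exporter that loads the phloem in Arabidopsis, from 0.238, 0.808 and 0.427 CPM in CK to 9, 14.8 and 12.9 CPM in AC (log2FC 4.66 ± 0.83, adjusted p = 0.028). ERDL6 and STC passed as lower without CK replicate 2 (adjusted p = 0.038 and 0.044). None of 6 aquaporins passed, and WTR18 came nearest, at 31, 36.6 and 129 CPM in AC and 4.02, 14.3 and 5.17 CPM in CK (log2FC 3.07, adjusted p = 0.055, and 0.015 without CK replicate 2).

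In 10 hormone genes, GAOX2, a gibberellin oxidase, fell, and none rose (median -0.79), while DESeq2 called 3 in each direction. It was at 0.285, 0.208 and 0.361 CPM in AC and 1.61, 5.16 and 0.932 CPM in CK (log2FC -3.14 ± 0.67, adjusted p = 0.047), highest in CK replicate 2, and it did not pass without that library (adjusted p = 0.18). RR16, a cytokinin response regulator, and GASA6, a gibberellin-regulated peptide, had log2FC values of 1.93 and 2.36, and PYL3, an abscisic acid receptor, one of -5.09. The groups did not overlap in these, and none passed (adjusted p from 0.089 to 0.11). Of 17 cell wall remodelling enzymes, of which DESeq2 called 4 in each direction, PAE9, a pectin acetylesterase, fell, at 0.163, 0.208 and 0.12 CPM in AC and 1.25, 1.03 and 1.05 CPM in CK (log2FC -2.71 ± 0.54, adjusted p = 0.044), and XAT2 and XTH23 had log2FC values of -1.80 and -1.53 without passing (adjusted p = 0.051 and 0.063). Of 9 fermentation and hypoxia genes, 7 had positive values (median 1.5) and 1 passed, while DESeq2 called 5 higher and 2 lower. The one that passed, AOX3, an alternative oxidase of the mitochondrial electron transport chain, fell, from 15.8, 9.65 and 7.85 CPM in CK to 2.44, 4.17 and 3.37 CPM in AC (log2FC -1.74 ± 0.33, adjusted p = 0.039). ADH1 (TRINITY_DN27792_c0_g1), an alcohol dehydrogenase, was at 5.54, 5.78 and 6.74 CPM in AC and 1.19, 2.96 and 1.05 CPM in CK and did not pass by edgeR (adjusted p = 0.13), though it did by DESeq2 (0.021) and without CK replicate 2 (0.022).

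Transposon-related unigenes fell in 4 of 23 cases, with a median of -0.58 that changed sign to 1.04 without CK replicate 2. POLX TRINITY_DN1447_c0_g1, a Copia-type polyprotein, was at 10.6, 8.38 and 2.59 CPM in AC and 81.8, 16 and 126 CPM in CK (log2FC -3.37 ± 0.63, adjusted p = 0.037). POLX TRINITY_DN8596_c0_g1 and TRINITY_DN8244_c0_g1 and POLR1 TRINITY_DN540_c0_g2 fell too, by 3.05, 1.97 and 1.88 on the log2 scale (adjusted p = 0.032, 0.046 and 0.04). None of 11 histones and none of 19 translation and ubiquitin unigenes passed (medians 0.78 and 0.48). EF1A TRINITY_DN4818_c0_g1, a translation elongation factor that every cell uses, was at 34.4, 29.8 and 34.3 CPM in AC and 26.5, 43.1 and 25.4 CPM in CK (log2FC 0.05, adjusted p = 0.97).

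Outside these lists, the lower unigenes with a name included transcription factors, a transporter and a thioesterase. DRE2B, a drought-responsive factor of the DREB2 family, was at 10, 7.19 and 4.82 CPM in AC and 45.8, 42.6 and 125 CPM in CK (log2FC -3.27 ± 0.51, adjusted p = 0.023). RADL5, a RADIALIS-like MYB, was at 0.122, 0.156 and 0 CPM against 1.43, 2.92 and 1.24 CPM (log2FC -4.16 ± 0.80, adjusted p = 0.027). NAT4, a nucleobase-ascorbate transporter, and FATB, the thioesterase that releases saturated fatty acids in plastids, fell by 3.31 and 3.04 on the log2 scale (adjusted p = 0.045 and 0.023). MYB86 had the smallest adjusted p among lower unigenes with a name and was picked for it after its values were seen, at 0.855, 1.04 and 0.542 CPM in AC and 6.82, 3.72 and 7.65 CPM in CK (log2FC -2.88 ± 0.39, adjusted p = 0.016).

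Named unigenes outside the lists that rose included KTI5, a Kunitz-type protease inhibitor, and PDF1, a protodermal factor of the epidermis. KTI5 was at 23.8, 3.07 and 38.3 CPM in AC and 0.0595, 0.718 and 0.389 CPM in CK (log2FC 5.85 ± 0.95, adjusted p = 0.023). PDF1 had 109 counts in AC and 3 in CK, a ratio of 49.1 with a 95% counting interval of 16.4 to 242 (adjusted p = 0.025). SKP1A, a subunit of SCF ubiquitin ligases, had 66 counts in AC and 1 in CK (ratio 89.2, 15.5 to 3580). Of DEGs without a name, 4 were taken by their mean CPM, which also depends on unigene length. These were TRINITY_DN2511_c0_g1 and TRINITY_DN24685_c0_g1, lower in AC (-3.74 and -3.59 on the log2 scale), and TRINITY_DN170_c0_g1 and TRINITY_DN13401_c0_g1, higher in AC (6.75 and 3.03), the first of which did not pass without CK replicate 2 (adjusted p = 0.057). TRINITY_DN2511_c0_g1 was at 43.2, 103 and 51.3 CPM in AC and 1530, 555 and 542 CPM in CK, and TRINITY_DN170_c0_g1 at 149, 908 and 2340 CPM against 4.64, 7.9 and 19.1 CPM.

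Activated carbon was also added on top of PVP, and that comparison, AC and PVP vs. PVP, shares no library with AC vs. CK. In the study the PVP dose was also higher in AC and PVP than in PVP. Effects of carbon and of PVP dose cannot be told apart in that comparison, nor in its difference from AC vs. CK. It gave 41 DEGs (0.0704%), 17 higher and 24 lower, though library sizes without TMM gave the opposite balance, with 25 higher and 11 lower. Of the 189 DEGs of AC vs. CK, 161 (85.2%) had the same sign in AC and PVP vs. PVP, 85 of the higher and 76 of the lower, against 51.1% of all unigenes tested. Their median log2FC was 1.10 with PVP and 3.20 without it for those called higher, and -1.63 and -3.04 for those called lower, the second value of each pair being the one that selected them. DEGs in both comparisons numbered 21, all of 1 sign in both, which is 11.1% of those in AC vs. CK and 51.2% of those in AC and PVP vs. PVP.

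These 21 included the 4 NLTPC unigenes, C86A1, HHT1, LTG16, CSPL5, GDL38, GDL31, GDL34, GDL29, PTR1 and HIP7. C86A1 was at 6.69, 5.26 and 10.6 CPM in PVP and 0.855, 1.54 and 0.631 CPM in AC and PVP (log2FC -2.88, SE 0.44, adjusted p = 0.032). NLTPC TRINITY_DN35416_c0_g1 was at 0, 0.0531 and 0.125 CPM in PVP and 19.9, 6.58 and 219 CPM in AC and PVP (log2FC 10.45, SE 1.38, adjusted p = 0.0026). C86B1 and FACR3, the other suberin and wax enzymes that fell, had values of -2.47 and -1.80 with PVP and did not pass there (adjusted p = 0.11 and 0.074).

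The 5 defensins that rose in AC vs. CK lay near 0 with PVP. DEF TRINITY_DN8257_c3_g1 was at 264, 521 and 330 CPM in PVP and 255, 350 and 348 CPM in AC and PVP (log2FC -0.23, adjusted p = 0.84), and the other 4 defensins gave values from -0.08 to 0.28. MT1 was at 0.889, 0.797 and 0.125 CPM in PVP and 0, 0.268 and 0.18 CPM in AC and PVP. GSTXC and ASPGB had values of -3.63 and 1.34 with PVP against 9.35 and -4.04 without it, and neither passed there (adjusted p = 0.4 and 0.5). None of these differences between the media passed the test of the difference itself, which called 1 unigene of 58247 (0.00172%), while 4337 had an unadjusted p under 0.05.

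**Figure D5:**
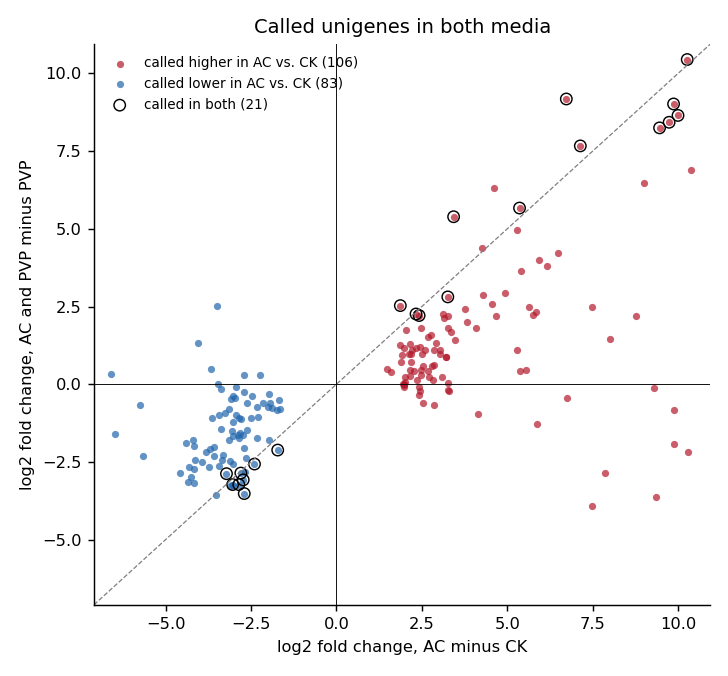
Log2 fold change of the 189 DEGs of AC vs. CK (x axis) and in AC and PVP vs. PVP (y axis), red for 106 higher, blue for 83 lower, with a ring around the 21 that are DEGs in both and a dashed line of equality. The median of the higher DEGs is 3.20 on the x axis and 1.10 on the y axis, and that of the lower DEGs -3.04 and -1.63.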

How the data were processed

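RNA of pooled embryo seedlings was sequenced from oligo-dT libraries as Illumina paired-end reads, which the authors cleaned with TrimGalore. Unigenes came from a de novo Trinity assembly, to which reads were mapped with Bowtie. The deposited values are estimated counts per unigene that the authors obtained with RSEM, with no normalization. They were rounded to whole numbers, and between 2.39% and 3.97% of values per library were not whole before that. A unigene was tested where its deposited count was over 0 in at least 3 of 12 libraries, which kept 58247 of 130956 and left out 72709. All 12 libraries, with 4 groups of 3, were fitted together in edgeR 4.0.16 (quasi-likelihood test, TMM, R 4.3.3, limma 3.58.1), and p-values were adjusted by Benjamini-Hochberg over all unigenes tested. An exact permutation test of 3 against 3 libraries cannot go below p = 0.1, so none is given. The fit was tested on simulated counts. The SE given with a log2FC was not fitted directly. It was worked back from that log2FC and the F value of its edgeR test, so it is approximate. Counting intervals are exact and cover 95% counting error only.

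Names were taken from the study's own tables of called unigenes, where they are matches to Swiss-Prot proteins of other plants and organisms. The fold changes and p-values in those tables were not used. For each gene list up to 4 called members with the smallest adjusted p were named (2 by p where none was called). Also named were the 12 largest called changes in each direction, 2 unnamed unigenes each way and PPO. Those 12 came only from unigenes with a name, a mean level above a floor and no overlap between AC and CK. Some larger called changes were therefore not among the 12, such as MT2 TRINITY_DN26539_c0_g1 (overlap) and MYB93 (low mean level). Other members were named after their values were seen, and some that the rule names are given only by their list's counts. Members and lists were chosen with earlier results of these data known. The alternatives tried were DESeq2 1.42.0, a fit on 6 libraries, another dispersion estimate, size factors, filters, a replicate block, a seed reserve covariate and each library left out. Assembled copies of a gene family (NLTPC, metallothioneins, defensins) can share or split reads. The labels give no batch or date.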

Additional observations from a re-analysis of the deposited data

Results flagged for a closer look

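Groups of 3 libraries are too small for the check on single stray samples. For 1 unigene AC and PVP vs. PVP, in which the PVP dose changed as well, differed from AC vs. CK by a test of the difference itself. TRINITY_DN14585_c0_g1, which has no name, was at 104, 118 and 120 CPM in AC and 90.8, 207 and 205 CPM in CK, where the groups overlapped (log2FC -0.56 ± 0.51, adjusted p = 0.72 by edgeR). It was at 0.296, 0.319 and 0.375 CPM in PVP and 8.21, 66 and 58.3 CPM in AC and PVP, where they did not (log2FC 7.05 ± 0.70, adjusted p = 0.00086). The difference between both effects was 7.61 ± 0.85 on the log2 scale (adjusted p = 0.0083), and the low level was that of PVP alone, in all 3 of its libraries.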

How the results depend on the processing

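AC vs. CK gave 189 DEGs (106 higher, 83 lower). DESeq2 called 531 (307 and 224) on 2 groups and 823 (492 and 331) on all libraries, edgeR on the AC and CK libraries alone 101 (65 and 36), and no filter on low counts 1880 (988 and 892). Scaled by library sizes 165 were lower, and with the filterByExpr filter 55. Leaving out 1 library gave 0 (without CK replicate 3) to 421 (without CK replicate 2), with 0 to 256 higher and 0 (without AC replicate 3) to 165 lower. AC and PVP vs. PVP, with 41 DEGs, gave 36 by library sizes, 328 by DESeq2, 5 with filterByExpr and 5 to 187 with 1 library left out (without AC and PVP replicates 3 and 2). The test of the difference between media, with 1 call, gave 106 by DESeq2 on all libraries, 5 by library sizes, 0 with filterByExpr (2268 at an unadjusted p under 0.05) and 0 to 12 with 1 library left out. Another dispersion estimate, RLE size factors and the seed reserve covariate kept the counts of AC vs. CK within 1.5 times. AC and CK libraries of one number deviated together at r = 0.21, 0.23 and 0.07 (15138 unigenes). In these deviations every library correlated best with its own number, though AC replicate 3 only by 0.07 against 0.05 with CK replicate 1. In the levels themselves, AC replicates 1 to 3 all correlated best with CK replicate 2 among CK libraries (r = 0.957, 0.959 and 0.943). The study's methods speak of paired replicates without saying what paired them. Whether the numbers mark pairs is not known, and the main test did not use them. With the number as a replicate block, 682 DEGs (393 and 289) were called, including 187 of the 189, and 429 and 98 in the other tests. Of 88 unigenes named by the rule, 67 were called, and none of these changed direction in any setting. LEA1, not called, went from a log2FC of -2.78 to 3.54 without CK replicate 2. Of the 67, DESeq2 on 2 groups and the replicate block called all 67, edgeR on the 6 libraries 33, the covariate 44, and leaving out 1 library 0 to 61. List medians for the Casparian strip and aquaporins, 0.10 and 0.15, turned to -0.14 and -0.26 by library sizes only. The cause of these differences was not tested.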
